A study of Mus musculus with 12 samples.

Results

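The respiratory chain is built from genes of 2 genomes, and its transcripts were followed here in primary mouse hepatocytes from wild-type cells and from cells labelled as knockouts of the transcription factor gene Hnf4a. The set holds the subunit genes of complexes I to IV, taken by their mouse symbols (Nduf, Sdh, Uqcr and Cox in the standard subunit forms), and the mitochondrially encoded protein genes of the chain and the ATP synthase, written with the prefix mt-. Of 55414 genes in the count table, 77 had such a symbol. A member also had to reach 10 counts in each of 3 or more libraries, which left 67 members, 60 nuclear and 7 mt-. The nuclear members numbered 36 in complex I, 4 in complex II, 8 in complex III and 12 in complex IV. The mt- members were 5 subunits of complex I, mt-Cytb of complex III and mt-Co1 of complex IV.

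RNA was sequenced from primary hepatocytes, cells isolated from liver, in 4 groups of 3 libraries. By the genotype label, cells were wild type (WT) or Hnf4a KO, a knockout. In both genotypes, 3 libraries came from cells given DMSO as vehicle and 3 from cells given MJ041, for which the labels offer a code name and no structure. The title of the series places the work in HNF4A dysfunction in sepsis. The labels used here give no dose, treatment time, age, sex or strain and no Cre line or deleted exon. They do not say whether replicates came from separate animals, so p-values measure only the spread between these samples.

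The respiratory chain passes electrons from NADH (complex I) and succinate (complex II) through coenzyme Q, complex III and cytochrome c to complex IV, which reduces oxygen, and complexes I, III and IV pump the protons that drive ATP synthesis. Most subunits are encoded in the nucleus and imported, while the small circular genome inside the mitochondrion encodes core subunits of complexes I, III and IV and of the ATP synthase but none of complex II. Hepatocytes are rich in mitochondria, and their respiratory chain supports fatty acid oxidation, urea synthesis and gluconeogenesis.

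The libraries held 16740761 to 17902832 counts. Levels are CPM, counts scaled to a common library size with edgeR's TMM factors. Log2 fold changes and their standard errors (SE) come from edgeR's quasi-likelihood fit to all 12 libraries, with Benjamini-Hochberg adjustment over the 14919 genes tested and a threshold of 0.05, and a gene is said to have risen or fallen only where it passed. Hnf4a, the targeted gene, stood at 121, 137 and 112 CPM in WT and 61.1, 67.8 and 66.4 CPM in KO with vehicle, a log2 fold change of -0.92 ± 0.10 (SE, n = 3 per group; edgeR adjusted p = 8.86e-06), so transcripts of the gene remained in the KO libraries. The 7 hepatocyte markers were detected in every library and summed to 46844 to 61309 CPM in WT and 20242 to 23662 CPM in KO. With vehicle, Kupffer cell markers (12 genes, detected in every library) summed to 244 to 494 CPM in WT and 462 to 516 CPM in KO, endothelial markers (10 genes) to 241 to 371 and 231 to 354 CPM, and stellate markers (12 genes) to 48.5 to 64.6 and 43.2 to 82.5 CPM. Erythroid markers summed to at most 0.478 CPM. In bulk RNA, fewer cells of a type, less RNA per cell and a changed level of the marker genes themselves cannot be told apart. The hepatocyte markers had log2 fold changes from -5.84 (Serpina1a) to 0.99 (Apoa1) in KO with vehicle. Their sum was therefore not read as hepatocyte content.

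Nuclear respiratory chain genes were higher in KO than in WT hepatocytes with vehicle, across all 4 complexes. Of the 58 nuclear members that reached the count minimum in 3 or more WT libraries, 51 rose and 0 fell, where 27.5% of all genes tested rose and 26.9% fell. Their median log2 fold change was 0.36, beside -0.00 over all genes tested, and for 55 of the 58 every KO library was above every WT library (31.6% of all genes; 31.5% had every KO library below). Cox6b2 and Cox6a2 entered through KO libraries, which built a difference between genotypes into their selection; with them, 53 of 60 rose. DESeq2 called 51 of the 60 higher, where it called 26% of all genes higher and 26.1% lower. The rises were modest: leaving aside 3 complex IV isoforms of very low level described below, the fold changes ran from 1.00 for Cox5a to 1.68 for Ndufa1. By complex, 32 of 36 members of complex I rose (median log2 fold change 0.39), 3 of 4 of complex II (0.21), 7 of 8 of complex III (0.25) and, leaving out Cox6b2 and Cox6a2, 9 of 10 of complex IV (0.40). Hepatocyte markers moved with genotype at the same time: 6 of 7 fell and Apoa1 rose (log2 fold change 0.99). Their part in the rises was not tested. With the mean log2 level of the Kupffer, endothelial and stellate markers as a covariate edgeR called 56 nuclear members. The share of all genes called in that fit is not given here, so this count cannot be read against the main one.

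**Figure D1:**
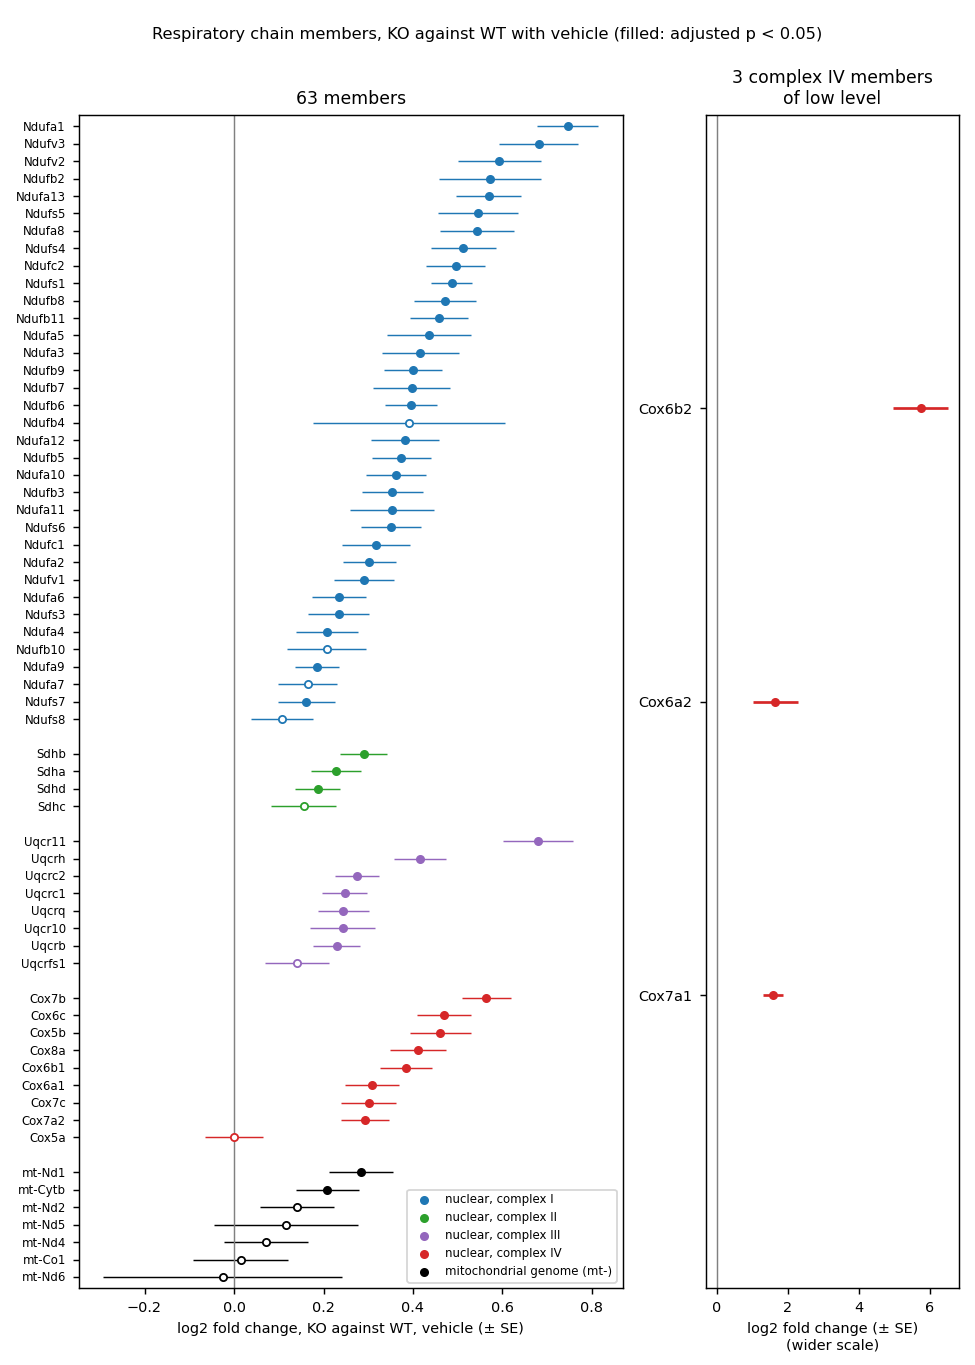
Log2 fold change in KO against WT with vehicle for the members reported singly (points) with their SE (bars), by complex and genome; filled points passed an adjusted p of 0.05 in edgeR. Nearly all nuclear members lie right of 0, 2 of the 7 mt- members are filled, and a separate panel shows on a wider scale the 3 complex IV members of low level, whose fitted values rest on few WT counts.

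Within complex I, which oxidises NADH, the accessory subunits had a median log2 fold change of 0.40 (26 of 29 rose) and the 7 nuclear-encoded core subunits a median of 0.25 (6 of 7 rose). Ndufa1, a small accessory subunit encoded on the X chromosome, stood at 32.3, 31.7 and 33.6 CPM in WT and 57.1, 49.99 and 56.6 CPM in KO. The groups lay far apart, with a log2 fold change of 0.75 ± 0.07 (SE, n = 3 per group; edgeR adjusted p = 1.48e-06). Ndufv3, an accessory subunit of the NADH-oxidising module, stood at 20.01, 22.98 and 22.3 CPM in WT and 35.9, 34.1 and 34.6 CPM in KO (log2 fold change 0.68 ± 0.09). Ndufv2, a core iron-sulfur subunit of the same module, was at 60.2, 56.95 and 52.5 CPM in WT and 84.7, 85.5 and 85.6 CPM in KO (0.59 ± 0.09). No library of these genes crossed between genotypes. Ndufv1, which binds NADH and flavin, rose by 0.29 ± 0.07 (edgeR adjusted p = 0.00250). The 4 members of complex I that did not pass were Ndufb4 (0.39 ± 0.21, at 2.26 to 4.57 CPM in these 6 libraries), Ndufb10 (0.21 ± 0.09), Ndufa7 (0.16 ± 0.07) and the core subunit Ndufs8 (0.11 ± 0.07).

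Complex II, succinate dehydrogenase, also works in the tricarboxylic acid cycle. Sdha, the flavoprotein subunit, stood at 251, 253 and 248 CPM in WT and 301, 289 and 291 CPM in KO, a log2 fold change of 0.23 ± 0.06 (SE; edgeR adjusted p = 0.00343). Sdhb, the iron-sulfur subunit, was at 85.7, 89.4 and 85.9 CPM in WT and 108, 107 and 104 CPM in KO (0.29 ± 0.05). Sdhd, a membrane anchor, was at 135, 139.6 and 135 CPM in WT and 158, 157 and 151 CPM in KO (0.19 ± 0.05). KO libraries were above WT libraries for all 3 and also for the other anchor, Sdhc. Sdhc, at 117, 115 and 99.4 CPM in WT and 126, 123 and 119.9 CPM in KO, did not pass (0.16 ± 0.07; edgeR adjusted p = 0.0858). It passed with raw library totals (edgeR adjusted p = 0.0425), with the marker covariate (0.00493) and without WT MJ041 replicate 3 (0.0497).

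In complex III, which passes electrons from coenzyme Q to cytochrome c, Uqcr11 had the highest fold change. This small subunit stood at 44.3, 49.4 and 41.2 CPM in WT and 70.03, 70.6 and 75.6 CPM in KO, a log2 fold change of 0.68 ± 0.08 (SE; edgeR adjusted p = 1.07e-05). Uqcrh, the hinge protein, was at 122, 120.4 and 111 CPM in WT and 152, 162 and 157 CPM in KO (0.42 ± 0.06). The core protein gene Uqcrc2 was at 186, 190.3 and 178 CPM in WT and 223, 227 and 221 CPM in KO (0.27 ± 0.05). All 8 members were higher in every KO library than in any WT library. The Rieske iron-sulfur protein gene Uqcrfs1 was the member that did not pass (0.14 ± 0.07; edgeR adjusted p = 0.112).

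Complex IV, cytochrome c oxidase, held the member with the least difference beside several clear rises. Cox7b stood at 119, 126 and 113 CPM in WT and 181, 175 and 174 CPM in KO, a log2 fold change of 0.56 ± 0.06 (SE; edgeR adjusted p = 2.98e-06). Cox6c rose by 0.47 ± 0.06 and Cox5b by 0.46 ± 0.07. Cox5a, in contrast, was at 115, 124 and 112 CPM in WT and 118, 123 and 109.9 CPM in KO, with overlapping groups (-0.00 ± 0.06).

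Several complex IV subunits have isoforms used in particular tissues. The forms common to most tissues rose together: Cox4i1 (which the symbol rule does not take) by 0.41 ± 0.05, Cox6a1 by 0.31 ± 0.06, Cox6b1 by 0.38 ± 0.06, Cox7a2 by 0.29 ± 0.05 and Cox8a by 0.41 ± 0.06. Cox7a2l, which helps to join complexes III and IV, did not pass (0.15 ± 0.06; edgeR adjusted p = 0.0548). Ndufa4, counted above with complex I by its symbol but found with complex IV, rose by 0.21 ± 0.07.

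Isoforms named for other tissues were scarce. Cox6b2, known as the testis isoform, had 0, 0 and 2 counts in WT with vehicle and 54, 28 and 45 in KO with vehicle. With MJ041 it had 1, 0 and 2 counts in WT and 67, 22 and 46 in KO. The ratio of KO to WT, corrected for library size, was 63.3 with vehicle (exact 95% interval 17.2 to 528) and 43.0 with MJ041 (14.4 to 211). These intervals cover counting error only, since they pool the 3 libraries of each group and leave out the spread between libraries. Reads lacking molecular identifiers may be copies of 1 molecule, so the intervals may be too narrow even for that. Cox6b2 still reached only 2.41 ± 0.734 CPM (SD, n = 3) in KO with vehicle (edgeR adjusted p = 4.01e-05). Cox6b2, like Cox6a2 below, entered the set through KO libraries. Its ratios and p-value are therefore descriptions and no independent evidence of a genotype difference.

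Cox7a1, the heart and muscle isoform, had 6, 14 and 16 counts in WT and 36, 36 and 36 in KO with vehicle (log2 fold change 1.57 ± 0.28; edgeR adjusted p = 0.000417). Cox6a2, the heart and skeletal muscle isoform, had 3, 3 and 3 counts in WT and 17, 3 and 9 in KO with vehicle. Its edgeR adjusted p of 0.0420 became 0.261 without KO vehicle replicate 1 and lay between 0.0521 and 0.102 without any 1 of WT vehicle replicates 1 to 3, KO vehicle replicate 3 or KO MJ041 replicate 2. DESeq2 did not call it (adjusted p = 0.0697).

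Ndufa4l2, a low-oxygen relative of Ndufa4 that the rule does not take, had 27, 50 and 72 counts in WT and 86, 214 and 155 in KO with vehicle (1.61 ± 0.41; edgeR adjusted p = 0.00488). Cox4i2, the low-oxygen form of Cox4i1, had 0 to 4 counts in every library. Of the nuclear genes below the count minimum, Cox8b and Cox7b2 were at 0 in all 12 libraries, Cox8c had 2 counts in all and Cox6c2 had 35 in all.

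**Figure D2:**
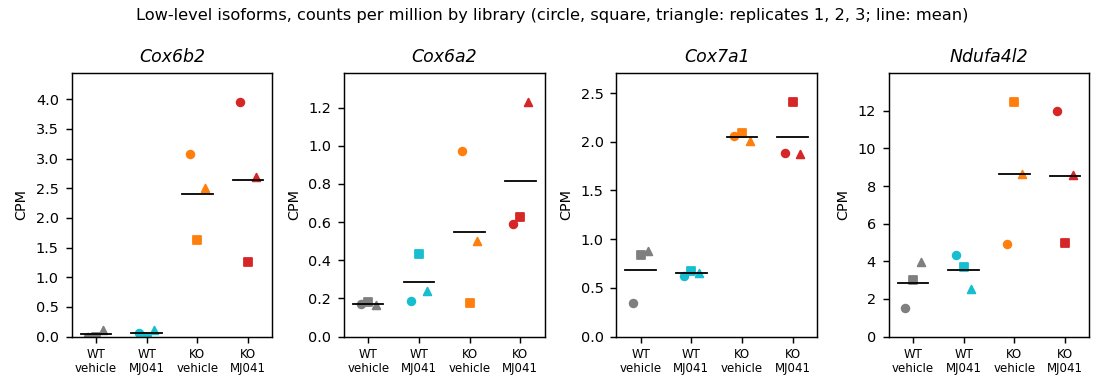
Level in CPM (vertical axes from 0) of the low-level isoforms Cox6b2, Cox6a2, Cox7a1 and Ndufa4l2 in each of the 12 libraries by group, with the group mean as a line. Cox6b2 is near 0 in all 6 WT libraries and above them in all 6 KO libraries, while the vehicle groups meet for Cox6a2.

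What nuclear members share before their start sites was read from RefSeq promoter windows (GRCm38.p6, 250 bases before to 50 after each start), which held 50 of the 60. Motifs were searched on both strands: the palindromic motif of the nuclear respiratory factor NRF1, CCGGAAG for ETS factors such as GABP, AAGATGGCG for YY1, TCAAGGTCA for ERRA and CAAAGTCCA for HNF4A. The NRF1 motif was in 11 of 50 windows (22%) against 5.19% of 27025 genes, the ETS motif in 11 (22%) against 9.93%, YY1 in 5 (10%) against 1.64%, ERRA in 1 (2%) against 0.466% and HNF4A in 0 against 0.555%. At least 1 motif was present in 24 windows (48%), against 16.01% of all genes. Members with an NRF1 motif had a median log2 fold change with vehicle of 0.35 and those without one 0.38; for the ETS motif the medians were 0.38 and 0.37.

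The start site used next is the more upstream of the RefSeq and GENCODE M21 starts. Ndufb4 and Ndufa11 hold an NRF1 motif in the 120 bases before it and are not shown. Those 120 bases are shown for Sdha, Sdhd and chosen members of complexes I, III and IV. All hold an NRF1 or ETS motif there, in capitals. Each is written in the direction of its gene with GRCm38.p6 positions, and CTTCCGG is the ETS motif on the opposite strand.
Sdha (chr13:74350281-74350400, minus strand): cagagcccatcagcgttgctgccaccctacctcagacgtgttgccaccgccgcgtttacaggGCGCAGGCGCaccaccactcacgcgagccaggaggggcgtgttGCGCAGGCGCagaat
Sdhd (chr9:50603850-50603969, minus strand): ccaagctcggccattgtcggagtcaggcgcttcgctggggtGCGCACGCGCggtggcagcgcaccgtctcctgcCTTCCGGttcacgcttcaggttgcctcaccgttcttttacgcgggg
Ndufs5 (chr4:123718203-123718322, minus strand): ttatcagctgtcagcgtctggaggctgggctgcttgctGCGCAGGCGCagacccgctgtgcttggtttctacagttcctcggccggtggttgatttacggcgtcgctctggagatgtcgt
Cox6a1 (chr5:115348982-115349101, minus strand): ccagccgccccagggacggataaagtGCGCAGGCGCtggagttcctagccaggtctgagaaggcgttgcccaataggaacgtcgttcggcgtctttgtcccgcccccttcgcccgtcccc
Uqcr11 (chr10:80406831-80406950, minus strand): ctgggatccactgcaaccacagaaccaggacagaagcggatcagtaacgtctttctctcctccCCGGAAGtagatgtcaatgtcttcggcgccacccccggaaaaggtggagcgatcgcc
Uqcrh (chr4:116075072-116075191, minus strand): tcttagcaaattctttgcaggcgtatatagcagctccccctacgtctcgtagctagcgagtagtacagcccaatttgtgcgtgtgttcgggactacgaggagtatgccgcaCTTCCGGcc
Sdha holds the NRF1 motif at 58 and 15 bases before the start, and Sdhd holds the NRF1 motif at 79 and the ETS motif at 46. Sdha and Sdhd, with modest rises, and Uqcr11, with a large one, all carry such a motif.

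Ndufa1 and Cox7b, with large rises, and Cox6b2, nearly silent in WT, are shown because none of the 5 motifs occurs in their stretch, which therefore has no capitals.
Ndufa1 (chrX:37191239-37191358, minus strand): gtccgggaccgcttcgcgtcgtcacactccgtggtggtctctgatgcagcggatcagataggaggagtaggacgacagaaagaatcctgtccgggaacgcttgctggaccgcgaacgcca
Cox7b (chrX:106015580-106015699, plus strand): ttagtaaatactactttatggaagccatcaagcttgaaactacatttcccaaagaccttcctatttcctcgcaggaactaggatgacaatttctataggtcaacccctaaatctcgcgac
Cox6b2 (chr7:4753095-4753214, minus strand): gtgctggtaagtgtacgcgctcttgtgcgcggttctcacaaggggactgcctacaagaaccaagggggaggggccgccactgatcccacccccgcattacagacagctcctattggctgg
A match describes letters only, and its absence says no more than that these letters are not in the window.

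The list of transcriptional regulators of mitochondrial genes, some of which read these motifs, held 12 genes. In KO with vehicle 0 of the 12 rose and 6 fell (27.5% of all genes rose and 26.9% fell), with a median log2 fold change of -0.31 beside -0.00 for all genes, and in KO with MJ041 1 rose and 8 fell (median -0.28). Gabpa, the DNA-binding subunit of GABP, was at 82.4, 82.5 and 84.8 CPM in WT and 50.7, 57.5 and 52.2 CPM in KO (-0.64 ± 0.06; edgeR adjusted p = 1.13e-06). Myc fell by 0.67 ± 0.07, Nrf1 by 0.45 ± 0.07, Yy1 by 0.46 ± 0.07, the PGC-1-related coactivator gene Pprc1 by 0.46 ± 0.06 and the fatty acid receptor gene Ppara by 0.86 ± 0.21. Ppargc1a, the coactivator PGC-1 alpha, stood at 2.90 to 4.63 CPM in the 6 vehicle libraries and did not pass (0.00 ± 0.24).

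Other genes of mitochondrial energy metabolism are read against the same shares of all genes, 27.5% higher and 26.9% lower with vehicle and 26.8% and 27.6% with MJ041. Of 18 nuclear ATP synthase genes, 16 rose and 0 fell (median 0.38), among them Atp5c1, the gamma subunit, at 161 ± 5.60 CPM in WT and 243 ± 5.15 CPM in KO (SD, n = 3), and Atp5o (0.47 ± 0.07). Under MJ041 13 of these 18 rose and 1, Atp5d, fell (-0.13 ± 0.05; median 0.30). Of 44 assembly factors, 16 rose and 4 fell with vehicle (median 0.20), and 14 rose and 5 fell under MJ041 (0.15). Timmdc1 and Ndufaf2, needed to assemble complex I, rose by 0.55 ± 0.07 and 0.50 ± 0.07, while Sco2, a copper chaperone of complex IV, fell by 0.98 ± 0.14 and Coa7 by 0.47 ± 0.09. Of 17 genes for electron carriers and coenzyme Q synthesis, 9 rose, among them Coq3 (0.72 ± 0.10) and Etfdh (0.59 ± 0.09), and 2 fell, Coq10b (-0.62 ± 0.06) and Coq4 (-0.45 ± 0.10). Under MJ041 7 of the 17 rose and 4 fell. In the tricarboxylic acid cycle 4 of 13 rose with vehicle, a share near that of all genes, among them Suclg1 (0.45 ± 0.06) and Ogdh (0.35 ± 0.05), and 0 fell. Under MJ041 3 of the 13 rose and 3 fell, namely Fh1, fumarate hydratase (-0.37 ± 0.07), Mdh2 (-0.28 ± 0.05) and Cs, citrate synthase (-0.17 ± 0.06).

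Genes that serve the mitochondrial genome moved in both directions. Of 35 genes for its transcription, RNA processing and upkeep, 4 rose and 11 fell with vehicle (median -0.12), where 27.5% of all genes rose and 26.9% fell. Under MJ041 6 rose and 14 fell (median -0.08), where 26.8% of all genes rose and 27.6% fell. Trmt10c, a subunit of mitochondrial RNase P, was at 76.9 ± 3.70 CPM in WT and 49.3 ± 0.240 CPM in KO (SD, n = 3; -0.64 ± 0.05, edgeR adjusted p = 6.12e-07). Hsd17b10, another subunit of that enzyme, rose by 0.54 ± 0.08, while 1110008L16Rik, the older symbol of the RNase P gene Prorp, fell by 0.64 ± 0.07. The exonuclease gene Rexo2 rose by 0.43 ± 0.08. Tfam, which packages mitochondrial DNA, was at 41.9 to 45.97 CPM in WT and 44.4 to 52.1 CPM in KO and did not pass (0.16 ± 0.08). Of 77 mitochondrial ribosomal protein genes, 18 rose, among them Mrps34 (0.45 ± 0.07) and Mrpl15 (0.30 ± 0.05), and 11 fell, among them Mrps18b (-0.81 ± 0.06) and Mrpl9 (-0.38 ± 0.05), both shares below those of all genes; under MJ041 19 rose and 14 fell.

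Among the mitochondrially encoded members, 2 of 7 rose and 0 fell with vehicle, a share near the 27.5% of all genes that rose, with a median log2 fold change of 0.12. mt-Nd1, a membrane subunit of complex I, stood at 2796, 2887 and 2818 CPM in WT and 3391, 3610.1 and 3355 CPM in KO, without overlap (0.28 ± 0.07; edgeR adjusted p = 0.00441). mt-Cytb, the cytochrome b of complex III, stood at 1597, 1723 and 1735 CPM in WT and 2027, 1914 and 1900.4 CPM in KO, also without overlap (0.21 ± 0.07; edgeR adjusted p = 0.0241). The call for mt-Cytb was lost without any 1 of 7 libraries (WT vehicle replicates 1, 2 and 3, WT MJ041 replicate 2, KO vehicle replicates 1 and 3, KO MJ041 replicate 3), with edgeR adjusted p from 0.0505 to 0.127.

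mt-Co1, the catalytic subunit of complex IV, was at 11973, 13785 and 11329.6 CPM in WT and 12288, 13018 and 12162 CPM in KO, and the groups overlapped (0.01 ± 0.11). mt-Nd2 (0.14 ± 0.08), mt-Nd4 (0.07 ± 0.09) and mt-Nd5 (0.12 ± 0.16) did not pass. For mt-Nd5 the WT libraries stood at 3235, 3274 and 2165 CPM and the KO libraries at 3254, 3147 and 2997 CPM, so 1 WT library lay well below the rest. mt-Nd6, the only protein encoded on the other strand of the circle, stood at 13.6 to 22.4 CPM in these 6 libraries (-0.03 ± 0.27).

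Per kilobase of gene in WT with vehicle, the level of mt-Co1 was highest at 8002 ± 824 CPM per kilobase (SD, n = 3), followed by mt-Nd1 at 2961 ± 49.8 and mt-Nd2 at 1953 ± 96.8. mt-Nd5 at 1585 ± 345, mt-Cytb at 1473 ± 67.0 and mt-Nd4 at 1377 ± 147 did not differ beyond the spread of mt-Nd5, and mt-Nd6 was lowest at 34.3 ± 7.82. These levels use the full gene length. Nuclear gene models share 876 of the 1378 bases of mt-Nd4 and 483 of the 1545 bases of mt-Co1. The counts of both may be incomplete, so their levels may be too low and the place of mt-Nd4 is uncertain.

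**Figure D3:**
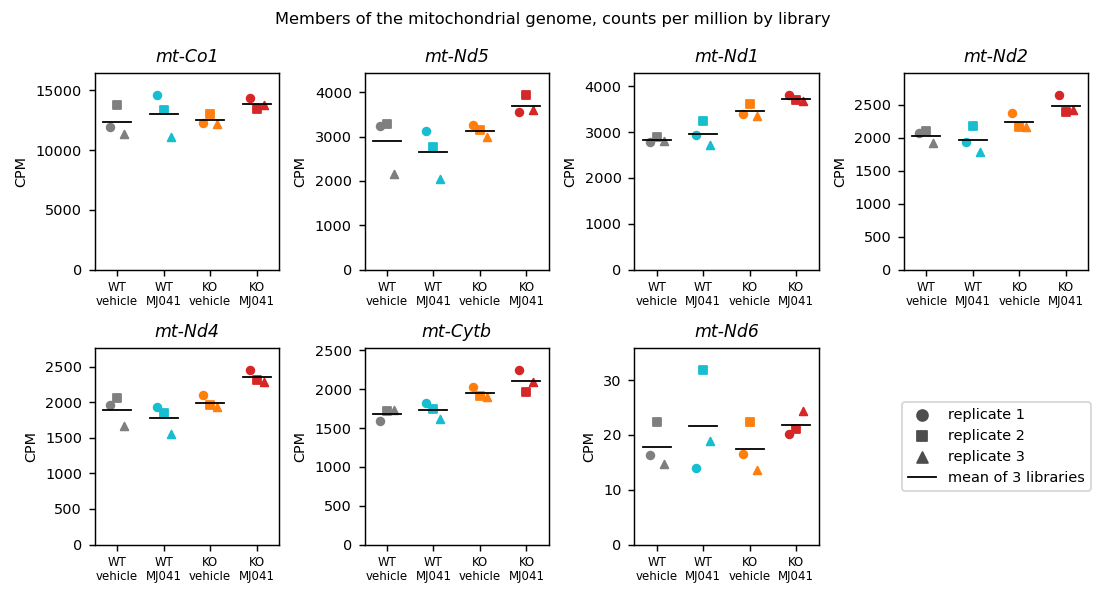
Level in CPM of the 7 mt- members in each of the 12 libraries by group, with the group mean as a line. mt-Nd1 is higher in every KO library with vehicle than in any WT library with vehicle, mt-Co1 overlaps between those groups, and replicate 3 of both WT groups is low for mt-Nd5.

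The other 6 mt- genes were below the count minimum: mt-Co2, mt-Atp8, mt-Co3, mt-Nd3 and mt-Nd4l are listed at 0 in all 12 libraries and mt-Atp6 has 1 count in all. They lie next to each other on the mitochondrial genome, at places 6 to 11 among its 15 protein and rRNA genes, between mt-Co1 (2660666 counts over the 12 libraries) and mt-Nd4 (413153). For 5 of the 6, all but mt-Atp8, a nuclear gene model shares a stretch of at least 100 bases at 98% identity or more in the GENCODE M21 transcripts, such as 681 bases for mt-Co2 (Gm28661) and 783 for mt-Co3 (Gm28437). Among the members, mt-Nd4 shares 876 of its 1378 bases with such a model and mt-Co1 483 of 1545, so the counts of both may be incomplete. How reads with several positions were counted is not given in the sources used here, and the part of such copies in these values was not tested. Of the 60 nuclear members, 20 share such a stretch with another gene. The 40 without one had 35 rises with vehicle, where 27.5% of all genes rose and 26.9% fell. Cox6b2 and Cox6a2, which entered through KO libraries, are among these 40 and among the rises.

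Summed over members, the balance between the 2 genomes differed with vehicle. The nuclear members took 0.425%, 0.426% and 0.401% of the counts in WT and 0.534%, 0.517% and 0.526% in KO, 26.0% more on average and without overlap. The mt- members took 2.40%, 2.58% and 2.19% in WT and 2.60%, 2.56% and 2.50% in KO, with overlap. The log2 ratio of mt- to nuclear counts was 2.51 ± 0.07 in WT and 2.28 ± 0.03 in KO (SD, n = 3), a difference of -0.23 without overlap. mt-Co1 supplied 52.1 ± 1.37% of the mt- counts in WT and 49.4 ± 1.07% in KO. Without it the difference in the log2 ratio was -0.15, again without overlap. The mitochondrial rRNA genes mt-Rnr1 (0.33 ± 0.21) and mt-Rnr2 (-0.21 ± 0.15) did not pass. Albumin, which belongs to the same totals, took 4.41% to 4.70% of counts in WT with vehicle and 1.83% to 2.05% in KO with vehicle.

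**Figure D4:**
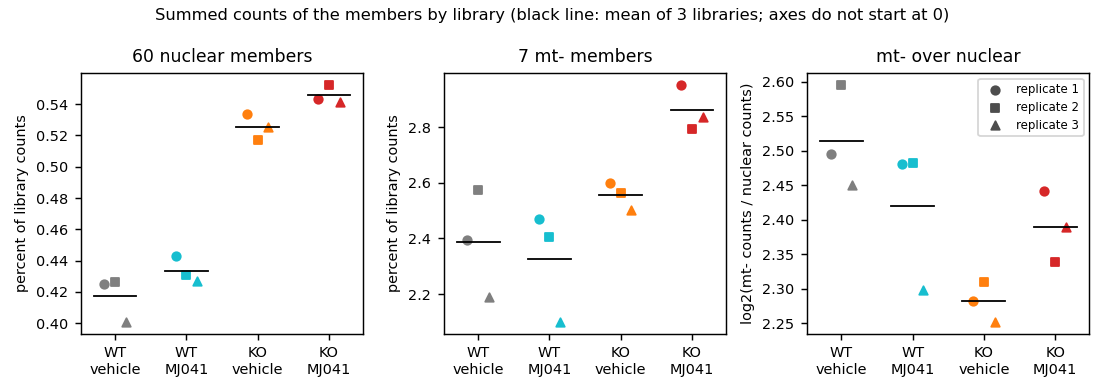
Summed counts of the 60 nuclear members and of the 7 mt- members as percent of each library's counts, and log2 of their ratio, with 3 libraries per group and the mean as a line; axes do not start at 0. Nuclear shares separate by genotype in both treatments, mt- shares are highest in KO with MJ041, and the ratio separates the genotypes with vehicle but not with MJ041.

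The comparison of genotypes under MJ041 rests on the other 6 libraries. Of the same 58 nuclear members, 46 rose and 0 fell (26.8% of all genes rose and 27.6% fell), with a median log2 fold change of 0.30 beside 0.02 for all genes, and 49 had every KO library above every WT library (29.4% of all genes; 29.8% had every KO library below). With Cox6b2 and Cox6a2, 48 of 60 rose. DESeq2 called 45 of the 60 higher, where it called 25.3% of all genes higher and 26.7% lower. Of all 60 nuclear members, 46 rose in both treatments, and Cox6b2 and Cox6a2 are among these. The share of all genes that rose in both is not given here. Ndufa1 (0.62 ± 0.07), Ndufa3 (0.58 ± 0.09) and Ndufv3 (0.56 ± 0.09) led complex I, and Uqcr11 (0.63 ± 0.08), Uqcrh (0.34 ± 0.06) and Uqcrq (0.30 ± 0.06) led complex III. Ndufa3, a small accessory subunit, stood at 38.8, 40.03 and 35.5 CPM in WT and 52.9, 63.2 and 55.2 CPM in KO, without overlap. In complex IV, Cox7b rose by 0.51 ± 0.06 and Cox7a1 by 1.65 ± 0.29. Ndufa7 and Ndufb4 passed only in this comparison, and Cox5a, Ndufb10, Ndufs8, Sdhc and Uqcrfs1 in neither.

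Markers of other cell types were also compared between genotypes under MJ041, where 26.8% of all genes rose and 27.6% fell. Kupffer markers summed to 186 to 362 CPM in WT and 475 to 504 CPM in KO, without overlap, with 3 of 12 higher and 1 lower past the threshold (median log2 fold change 1.10). Endothelial markers summed to 160 to 273 and 262 to 306 CPM, with overlap (3 of 10 rose, 0 fell, median 0.71). Stellate markers summed to 29.3 to 54.3 and 49.0 to 61.5 CPM, with overlap (3 of the 9 tested rose, 0 fell, median 0.41). Of 7 hepatocyte markers 6 fell and Apoa1 rose (log2 fold change 0.79). With the mean level of the Kupffer, endothelial and stellate markers as a covariate, edgeR called 54 nuclear and 6 mt- members in this comparison. The share of all genes called in that fit is not given here, so these counts cannot be read against the main ones.

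In complex II, 0 of 4 members passed under MJ041 in edgeR. Sdha stood at 282, 276 and 255 CPM in WT and 304, 272 and 295 CPM in KO, which overlap (0.10 ± 0.06; edgeR adjusted p = 0.148). Sdhb was at 105, 101 and 95.2 CPM in WT and 109, 104 and 114 CPM in KO (0.12 ± 0.05), Sdhc at 128, 125 and 108 and 125, 128 and 124 CPM (0.06 ± 0.07), and Sdhd at 156, 147 and 138 and 158, 161 and 159 CPM (0.11 ± 0.05). The difference between the genotype effects of the treatments did not pass for any of the 4 (Sdha -0.13 ± 0.08, Sdhb -0.17 ± 0.07, Sdhc -0.09 ± 0.10, Sdhd -0.07 ± 0.07). At an unadjusted p under 0.05, 2 of the 4 were higher in KO with MJ041, where 29.6% of all genes were higher and 29.7% lower. Sdhb passed without KO MJ041 replicate 2 (edgeR adjusted p = 0.0440) and Sdhd without WT MJ041 replicate 1 (0.0293). With raw library totals in place of TMM, Sdha, Sdhb and Sdhd passed (edgeR adjusted p of 0.0137, 0.00390 and 0.00200), with a median of 0.09 for all genes, and with the marker covariate all 4 passed.

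**Figure D5:**
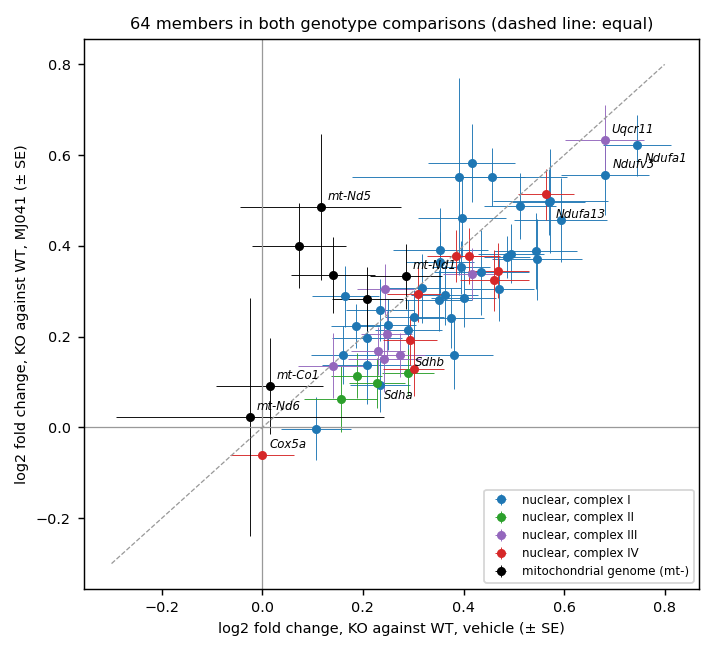
Log2 fold change of KO against WT with vehicle and with MJ041 for 64 members (the 3 complex IV members of low level are left out); the dashed line marks equal values, and the 2 comparisons share no library. Most nuclear members lie near or slightly below the line, and mt-Nd2, mt-Nd4 and mt-Nd5 lie above it.

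In the mitochondrial genome, 5 of 7 members rose in KO under MJ041 and 0 fell (26.8% of all genes rose and 27.6% fell). Their median was 0.33, beside 0.02 for all genes. mt-Nd4, a proton-pumping subunit of complex I, stood at 1934, 1856 and 1554 CPM in WT and 2455, 2309 and 2288 CPM in KO (0.40 ± 0.09; edgeR adjusted p = 0.00284). mt-Nd2 stood at 1931, 2183 and 1781 CPM in WT and 2647, 2383 and 2414 CPM in KO (0.34 ± 0.08), and mt-Nd5 at 3122, 2765 and 2039 CPM in WT and 3559, 3936 and 3596 CPM in KO (0.48 ± 0.16; edgeR adjusted p = 0.0215). None of these overlapped, though the call for mt-Nd5 was lost without WT MJ041 replicate 3 (edgeR adjusted p = 0.0825) or KO MJ041 replicate 2 (0.0640). mt-Nd1 (0.33 ± 0.07) and mt-Cytb (0.28 ± 0.07) rose, and mt-Co1 (0.09 ± 0.11) and mt-Nd6 (0.02 ± 0.26) did not pass. Of the rRNA genes, mt-Rnr2 fell (-0.65 ± 0.16; edgeR adjusted p = 0.00304) and mt-Rnr1 did not pass (-0.33 ± 0.21).

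The mt- share of counts was 2.47%, 2.41% and 2.10% in WT with MJ041 and 2.95%, 2.79% and 2.84% in KO with MJ041, without overlap. The nuclear share was 0.443%, 0.431% and 0.427% in WT and 0.543%, 0.552% and 0.541% in KO, also without overlap. The log2 ratio of mt- to nuclear counts, 2.42 ± 0.11 in WT and 2.39 ± 0.05 in KO (SD, n = 3), overlapped, with a difference of -0.03. Without mt-Co1 that difference was 0.11, also with overlap.

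MJ041 itself changed none of these genes past the threshold in WT cells: 0 of 60 nuclear and 0 of 7 mt- members passed in edgeR (2.21% of all genes passed, 1.19% higher and 1.02% lower). At an unadjusted p under 0.05, 18 nuclear members were higher and 0 lower, where 12.1% of all genes were higher, and 9.47% lower, and 0 of the mt- members passed at that level. DESeq2 called 3 nuclear members higher (Cox5b, Cox7c and Sdhb) and 0 mt- members, where it called 3.43% of all genes higher and 3.07% lower. Leaving out WT MJ041 replicate 3 let edgeR call 7 nuclear members, and the share of all genes in that fit is not given here. The median log2 fold change was 0.11 for nuclear members (55 of 60 above 0) and 0.04 for mt- members, beside 0.03 for all genes. For 19 nuclear members every treated library was above every vehicle library (13.1% of all genes; 9.22% had the reverse). With raw library totals the nuclear median was 0.05, beside -0.03 for all genes, and the mt- median was -0.02. Among abundant members, the core proteins Uqcrc2 and Uqcrc1 of complex III differed by 0.11 ± 0.05 and 0.09 ± 0.05, and Cox7b by 0.11 ± 0.06.

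The treated WT libraries were not alike in marker levels. Stellate markers summed to 31.6 and 29.3 CPM in WT MJ041 replicates 1 and 2 and 54.3 CPM in replicate 3, beside 48.5 to 64.6 CPM in WT with vehicle, and Kupffer markers to 186, 226 and 362 CPM beside 244 to 494 CPM. Without replicates 1 and 2, 1 treated WT library remained, which a fit must assume to vary like the other groups. Such a fit cannot show how far the genotype comparison with MJ041 depends on these replicates. Of the pathway genes, Esrra, the gene of the ERRA receptor, rose with MJ041 in WT (0.31 ± 0.07; edgeR adjusted p = 0.0381), as did Suclg1 (0.28 ± 0.06), Mdh2 (0.22 ± 0.05), Gpd2 (0.44 ± 0.09) and Cox19 (0.44 ± 0.09).

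In KO cells, 0 of 60 nuclear and 0 of 7 mt- members passed with MJ041 in edgeR (0% of all genes), and DESeq2 called 0 as well (0.0067% of all genes). At an unadjusted p under 0.05 the nuclear genes Ndufa3 and Uqcrq and the mitochondrial gene mt-Nd4 were higher and 0 members lower, where 1.26% of all genes were higher and 1.51% lower. The rRNA genes mt-Rnr1 (-0.48 ± 0.21) and mt-Rnr2 (-0.36 ± 0.15) were lower at that level. The 7 mt- members had a median log2 fold change of 0.15, and for 5 of them every treated library was above every vehicle library (5.13% of all genes; 4.38% had the reverse). mt-Nd4 was at 2097, 1956 and 1932 CPM with vehicle and 2455, 2309 and 2288 CPM with MJ041 (0.24 ± 0.09; edgeR adjusted p = 1.00). Nuclear members had a median of 0.05, and 13 of 60 did not overlap. The log2 ratio of mt- to nuclear counts was 0.11 higher with MJ041 in KO, without overlap, and differed by -0.09 in WT, with overlap. The mitochondrial rRNAs took 0.355%, 0.263% and 0.339% of counts with vehicle and 0.311%, 0.176% and 0.221% with MJ041 in KO, with overlap.

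The difference between the MJ041 responses of the genotypes passed for 0 members of either genome in edgeR (0% of all genes) and for 0 in DESeq2 (0.632% of all genes higher and 1.18% lower). At an unadjusted p under 0.05, Sdhb was lower and mt-Nd4 higher in this contrast, where 7.59% of all genes were lower and 5.68% higher. The median was -0.07 over nuclear members, 11 of 60 above 0, and 0.08 over mt- members, 7 of 7 above 0. With raw library totals the median over all genes moved from -0.02 to 0.04, and 26 of the nuclear values were above 0. The direction of many nuclear values thus depends on the scaling. All 7 mt- values stayed above 0, which an upward shift of all genes could not change. Relative to the median of all genes, the nuclear median was -0.06 with either scaling. The mt- median was 0.09 with TMM and 0.10 with raw totals.

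Gene length and chromosome were set beside the genotype effect with vehicle. The exon length of the nuclear members was 419 to 8086 bases, with a median of 1327 (GENCODE M21 models). All 18 members up to 1000 bases rose, with a median log2 fold change of 0.40, where 248 other protein-coding genes of that length had a median of 0.10 and 31.5% rose. Cox6a2 is among these 18 and Cox6b2 among the 15 of the next length range. Both entered through KO libraries, which built a difference between genotypes into their selection. From 1000 to 1500 bases 12 of 15 members rose (median 0.35; other genes -0.00, 25.6% rose), from 1500 to 2000 bases 5 of 7 (0.24; -0.04, 26.1%) and from 2000 to 3000 bases 8 of 9 (0.27; -0.05, 26.9%). From 3000 to 5000 bases 8 of 9 rose with a median of 0.37, beside -0.03 for 3707 other genes, of which 26.4% rose. Both members above 5000 bases rose (median 0.53), beside a median of -0.02 for 5576 other genes, of which 29.7% rose. Across the 60 nuclear members, Cox6b2 and Cox6a2 included, Spearman's rho between length and log2 fold change was -0.22, a description of genes that share the same libraries. Ndufa1, Ndufb11 (0.46 ± 0.06) and Cox7b are on the X chromosome, where 398 other genes had a median log2 fold change of 0.14 and 39.2% rose.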

How the data were processed

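RNA from primary mouse hepatocytes was sequenced in 12 libraries, 3 in each of 4 groups, from a stranded library kit, per the labels' protocols. The authors deposited whole-number read counts per gene. Per the submitters' processing notes, the build was mm39 and the tools included STAR 2.7.10b, Trimmomatic 0.34 and featureCounts; strand and multimapping settings and the annotation are not given in the sources used here. Counts were tested with edgeR 4.0.16 (R 4.3.3; TMM, filterByExpr with a minimum count of 10, 1 quasi-likelihood fit to 4 groups, Benjamini-Hochberg adjustment over 14919 genes) after the procedure was tested on simulated data. Library totals of 16740761 to 17902832 counts set the counting precision; replicate spread sets the SE. DESeq2 1.42.0, other scalings, a marker covariate, a replicate block and leaving out each library were alternatives. Near-identical copies were sought with blastn 2.17.0 among GENCODE M21 transcripts. Promoter sequences are RefSeq's (GRCm38.p6); since the counts use mm39, these positions belong to the sequences only.

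The members and lists were chosen with earlier results of these data known. Genes named are all mt- and Sdh members, the tissue isoforms, the 3 called members with the largest change in each direction per complex and comparison (or the 2 with the highest mean where none was called), and the 2 genes with the smallest adjusted p in each direction of each pathway list. Ndufv1, the complex I members that did not pass, Uqcrfs1, Cox5a, Cox5b, Cox6c, Cox7b with vehicle, the other regulators, Tfam, Atp5d, Fh1, Cs, Mdh2, Gpd2, Cox19, Ndufs5 and Ndufb11 fall outside that rule and were chosen after their values were seen. No pair of libraries within a group agreed within sampling noise (chi-square per degree of freedom 4.75 to 16.0). Values of 1 complex I member are not reported here singly; it stays in the counts, sums and medians.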

Additional observations from a re-analysis of the deposited data

Results flagged for a closer look

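The mean response of the mt- to nuclear log2 ratio to MJ041 had opposite signs in the genotypes: it was 0.108 higher than with vehicle in KO, where the 3 treated libraries (2.44, 2.34 and 2.39) lay above the 3 vehicle libraries (2.28, 2.31 and 2.25), and differed by -0.0933 in WT, where they overlapped (2.48, 2.48 and 2.30 against 2.50, 2.60 and 2.45). This difference between the genotypes was not tested. Without 1 library at a time the response ran from 0.0824 to 0.134 in KO and from -0.125 to -0.0322 in WT, and without mt-Co1 it was 0.12 in KO and -0.15 in WT. In KO the mt- share of counts was 11.9% higher and the nuclear share 3.81% higher with MJ041, neither with overlap. In WT the mt- share differed by -2.55%, with overlap, and the nuclear share was 3.90% higher, without overlap.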

How the results depend on the processing

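No alternative gave a lower call or a reversed direction among called members. Without 1 library at a time, edgeR called 46 to 54 nuclear and 1 to 2 mt- members in KO against WT with vehicle, 41 to 47 and 4 to 5 with MJ041, and 0 to 7 nuclear members for MJ041 in WT. Members without a near-identical copy, chosen after seeing the data, gave 35 and 31 of 40 in the 2 genotype comparisons of the main fit. Of all genes 27.5% and 26.8% rose there. Cox6b2 and Cox6a2, which entered through KO libraries, are among these members. For MJ041 in WT, DESeq2 called 3 nuclear members and the fit without a low-count filter 1. Raw library totals called 57 nuclear members in both genotype comparisons, with a median over all genes of 0.00 with vehicle and 0.09 with MJ041. The shares of all genes called in these alternative edgeR fits are not given here, so changes in the counts cannot be read against them. The ratio of mt- to nuclear counts without mt-Co1, also chosen after seeing the data, differed by -0.15 with vehicle and 0.11 with MJ041; without 1 library at a time the main differences ran from -0.26 to -0.19 and from -0.09 to 0.00. The cause of these shifts was not tested. The planned ratio without mt-Nd4l, mt-Atp8 and mt-Atp6 equals the main one, as none is a member, and the interaction could not be fitted within single comparisons.

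The labels do not say what a replicate number stands for. Deviations of same-numbered libraries correlated at -0.10 to 0.50, with 7 of 18 over 0.1, and 4 of the 6 pairs within a genotype were among these, so whether the numbers pair libraries within a genotype is not settled here. With a replicate block edgeR called 53 nuclear members with vehicle and 47 with MJ041, and 2 and 5 mt- members. The share of all genes called in that fit is not given here, so these counts cannot be read against the main ones. With the block Sdhc passed with vehicle (edgeR adjusted p = 0.0295) and Cox6a2 did not (0.0541).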

Other observations

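The X-linked transcript Xist, measured because 3 members lie on the X chromosome, had 28405 to 31854 counts in the 6 WT libraries and 46922 to 59200 in the 6 KO libraries, a log2 fold change of 0.79 ± 0.09 with vehicle (SE; edgeR adjusted p = 1.29e-05) and 0.76 with MJ041. The Y-linked genes Ddx3y, Kdm5d and Uty were at 0 in all 12 libraries and Eif2s3y had 1 count in 1. The part of this in the values of Ndufa1, Ndufb11 and Cox7b was not tested.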
